A study of Mus musculus with 2 samples.

Results

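The Zfp genes of the mouse encode zinc finger proteins, most of them with arrays of C2H2 fingers, and their promoters were compared between CD8+ T cells cultured with and without TAMos. The set held all autosomal protein-coding genes of the GENCODE M21 annotation (mm10) whose symbol is Zfp followed by digits alone, with 1 gene left out, which gave 357 of 20807 genes. Genes with a letter after the digits, such as Zfp874a, were not members. A gene was called clustered where a window of 500 kb held at least 3 members, and single otherwise, which gave 215 clustered and 142 single genes. These rules use no measured value, though the members were chosen with earlier results of these data known. From the annotated coding sequences, the Zfp genes had a median of 11 C2H2 fingers (clustered 12, single 9; highest 36, in Zfp142), and 14 genes had none by the pattern searched. Among those 14 was Zfp36, which encodes tristetraprolin, an RNA-binding protein of another finger type, so the name is a family label and not 1 protein class.

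Most mammalian C2H2 zinc finger proteins bind DNA, and many carry a KRAB domain, which recruits the corepressor TRIM28 and, with it, the histone methyltransferase SETDB1. KRAB zinc finger proteins are known above all for silencing transposable elements and for guarding imprinted genes, and their genes have multiplied by tandem duplication into clusters of near-copies. Single genes of the family include older factors that act at promoters, on RNA or on the ribosome, some with known roles in lymphocytes.

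Open chromatin was mapped by ATAC-seq, which reads out where a transposase can insert into DNA, in 2 libraries with 1 library per culture. In the TAMo culture, wild-type CD8+ T cells with the OT-I receptor, a transgene specific for a peptide of ovalbumin, were kept for 48 h with OVA257-264 and TAMos, the labels' name for CD11b+ Ly6G- Ly6C-high cells taken from spleens of mice that carried LLC tumours. In the vehicle culture, the same kind of wild-type CD8+ T cells received OVA257-264 and vehicle for 48 h. About 50000 sorted cells went into each library. With 1 library per culture there is no replicate check, so no test and no p-value between the cultures is given, and the purity of the sorted cells is not given in the sources used here. Values below are the reads over the summit of a promoter's strongest peak, recovered from the deposited fold enrichment and −log10 p. Ratios are log2 of TAMo over vehicle after division by each library's background, 5.8 reads in TAMo and 4.7 reads in vehicle, with 95% intervals that cover counting error only. A peak in more of the cells and a more open site in each cell cannot be told apart in such data.

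Promoter sequences, 250 bases before to 50 bases after a start site, were matched from RefSeq (build GRCm38.p6) for 290 of the 357 genes. The 7 below were chosen to show the strongest promoter of the set (Zfp687), a promoter higher in TAMo (Zfp108), one lower in TAMo (Zfp184), both higher members of a small chromosome 7 cluster (Zfp773 and Zfp418), and examples from the clusters on chromosomes 4 and 2 in which peaks were missing (Zfp980 and Zfp966). Each runs 5′ to 3′ on the gene's strand and capitals mark CpG dinucleotides. The windows are chr3:95015189-95015488 (−) for Zfp687, chr7:24254544-24254843 (+) for Zfp108, chr13:21944844-21945143 (+) for Zfp184, chr7:7136706-7137005 (−) for Zfp773, chr7:7171103-7171402 (+) for Zfp418, chr4:145670447-145670746 (+) for Zfp980 and chr2:175931051-175931350 (−) for Zfp966.
Zfp687: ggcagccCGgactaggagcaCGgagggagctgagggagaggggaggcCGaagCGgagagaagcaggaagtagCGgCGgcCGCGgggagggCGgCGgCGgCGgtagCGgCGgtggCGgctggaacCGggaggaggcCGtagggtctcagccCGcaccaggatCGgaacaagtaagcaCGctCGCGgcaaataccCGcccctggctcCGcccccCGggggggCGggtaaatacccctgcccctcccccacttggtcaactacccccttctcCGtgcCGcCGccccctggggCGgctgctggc
Zfp108: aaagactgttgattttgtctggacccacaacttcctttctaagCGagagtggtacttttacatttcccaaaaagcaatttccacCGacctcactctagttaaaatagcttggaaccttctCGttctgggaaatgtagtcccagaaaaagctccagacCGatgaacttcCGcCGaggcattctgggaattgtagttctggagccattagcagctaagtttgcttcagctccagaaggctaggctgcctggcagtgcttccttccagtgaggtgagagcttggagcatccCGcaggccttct
Zfp184: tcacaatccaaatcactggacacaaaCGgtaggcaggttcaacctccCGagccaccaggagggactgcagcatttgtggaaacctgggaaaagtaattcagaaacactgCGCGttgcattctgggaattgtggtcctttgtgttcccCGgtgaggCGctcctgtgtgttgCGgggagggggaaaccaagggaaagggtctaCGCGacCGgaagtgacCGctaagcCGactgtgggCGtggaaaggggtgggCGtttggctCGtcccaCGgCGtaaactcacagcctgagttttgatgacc
Zfp773: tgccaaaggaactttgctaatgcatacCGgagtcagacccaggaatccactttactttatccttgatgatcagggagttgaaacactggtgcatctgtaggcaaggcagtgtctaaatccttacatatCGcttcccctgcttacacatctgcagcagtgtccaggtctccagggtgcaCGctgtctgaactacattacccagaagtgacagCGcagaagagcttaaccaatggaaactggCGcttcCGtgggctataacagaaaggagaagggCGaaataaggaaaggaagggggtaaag
Zfp418: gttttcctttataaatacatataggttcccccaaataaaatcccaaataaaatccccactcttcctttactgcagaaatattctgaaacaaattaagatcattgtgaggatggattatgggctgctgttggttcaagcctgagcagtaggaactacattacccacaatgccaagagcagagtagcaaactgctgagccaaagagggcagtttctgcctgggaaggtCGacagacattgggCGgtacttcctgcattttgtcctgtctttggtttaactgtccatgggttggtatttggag
Zfp980: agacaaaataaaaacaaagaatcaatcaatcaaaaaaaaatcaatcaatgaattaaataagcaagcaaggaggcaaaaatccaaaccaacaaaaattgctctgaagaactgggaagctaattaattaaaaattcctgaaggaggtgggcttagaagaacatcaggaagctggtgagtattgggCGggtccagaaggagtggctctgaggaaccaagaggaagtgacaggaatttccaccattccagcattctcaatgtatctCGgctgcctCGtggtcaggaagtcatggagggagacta
Zfp966: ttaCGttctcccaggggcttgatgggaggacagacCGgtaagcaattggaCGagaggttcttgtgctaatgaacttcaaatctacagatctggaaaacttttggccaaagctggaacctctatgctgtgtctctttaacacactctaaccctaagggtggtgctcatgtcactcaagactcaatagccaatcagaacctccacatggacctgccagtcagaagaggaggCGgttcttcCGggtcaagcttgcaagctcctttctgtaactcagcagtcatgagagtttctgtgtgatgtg
The Zfp687 window held 30 CpG and that of Zfp184 held 17. Zfp108 and Zfp773 held 7 each, Zfp966 held 5, Zfp980 held 3 and Zfp418 held 2. The median was 14 CpG over the matched Zfp promoters (clustered 11, single 17.5) and 15 over the 15515 matched promoters of all genes. The Zfp966 window was identical to that of Zfp967 (0 edits), and the Zfp980 window was 89.7% identical to that of Zfp979. By contrast, Zfp773 and Zfp418, neighbours in 1 cluster with similar ratios, differed by 167 edits over 300 bases.

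Whole-series facts that bear on these promoters are few. The TAMo list held 179414 peaks and the vehicle list 127423 peaks, and the background values put the depth of the TAMo library at 1.23 times that of the vehicle library. Whole read numbers were recovered for all but 48 TAMo rows and 30 vehicle rows. All 6 CD8 T cell markers (Cd8a, Cd8b1, Cd3e, Cd3g, Cd2 and Lck) had a promoter peak in both libraries. Of 9 myeloid markers, 2 had a peak in both libraries: Cd14, with 411 reads in TAMo and 141 in vehicle, and Spi1, with 57 and 25. A further 3 had a peak in TAMo only (Itgam 118 reads, Fcgr3 52 and Adgre1 31), and 4 had none in either library (Lyz2, Ccr2, Ly6c2 and Mpeg1). Of the B cell markers Ms4a1 and Cd79a, Ms4a1 had 65 reads in TAMo and 26 in vehicle, while Cd79a had no peak. Higher coverage at some myeloid promoters thus goes with the TAMo library, and its part in the Zfp values was not tested.

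Zfp promoters were open more often than promoters in general, in both cultures and to nearly the same extent in each. A peak within 1 kb of a start site was found in both libraries for 307 Zfp genes, in TAMo only for 4, in vehicle only for 0 and in neither for 46. Over all 20807 genes these classes held 65.3%, 3.39%, 0.865% and 30.5%, and of the Zfp genes 86.0% were in the first class and 12.9% in the last. Clustered and single genes had the same shares: 187 of 215 clustered genes (87.0%) and 124 of 142 single genes (87.3%) had a peak in TAMo, and 185 (86.0%) and 122 (85.9%) had one in vehicle. With a window of 250 kb in the cluster rule the shares parted, at 92.3% in TAMo and 91.1% in vehicle for clustered genes and 82.5% and 81.5% for single genes. At the edge of the 1 kb rule, the intervals of Zfp663 lay 796 bp from its start site in TAMo and 811 bp in vehicle, inside it, and those of Zfp957 1150 bp and 1148 bp, outside it. At the edge of the cluster rule, Zfp334, Zfp335 and Zfp663 spanned 476502 bp and counted as clustered, while Zfp945 needed 505681 bp to span 3 members and did not.

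The missing peaks among clustered genes were concentrated in 2 places. The cluster on chromosome 4 (145510759 to 147848366, 18 genes from Zfp990 to Zfp933) had 16 genes with no peak, and the cluster on chromosome 2 from Zfp968 to Zfp966 (175372436 to 175931100) had no peak at any of its 4 genes. These hold 20 of the 28 clustered genes without a peak, and the other 8, Zfp334, Zfp345, Zfp433, Zfp626, Zfp781, Zfp869, Zfp936 and Zfp977, are spread over several clusters. In mouse embryonic stem cells, zinc finger gene clusters on these chromosomes are known to repress retrotransposons. In the chromosome 4 cluster, Zfp984 had 103 reads in TAMo and 109 in vehicle (log2 ratio −0.38) and Zfp933 had 305 and 271 (−0.13), both at the same end of the cluster. The neighbouring genes were mostly without a peak too: 3 of 4 other protein-coding genes in the chromosome 4 cluster and 5 of 5 in the chromosome 2 cluster had none. Outside promoters, the chromosome 4 cluster held 16 TAMo and 10 vehicle peaks in 2.28 Mb and the chromosome 2 cluster held 0 in either. Without these clusters, left out because their peaks were missing, 185 of 193 clustered genes (95.9%) had a peak in TAMo and 183 (94.8%) in vehicle. In 22 of the 32 clusters every member had a peak in both libraries, among them the 19 genes of the chromosome 13 cluster from Zfp712 to Zfp273.

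**Figure D1:**
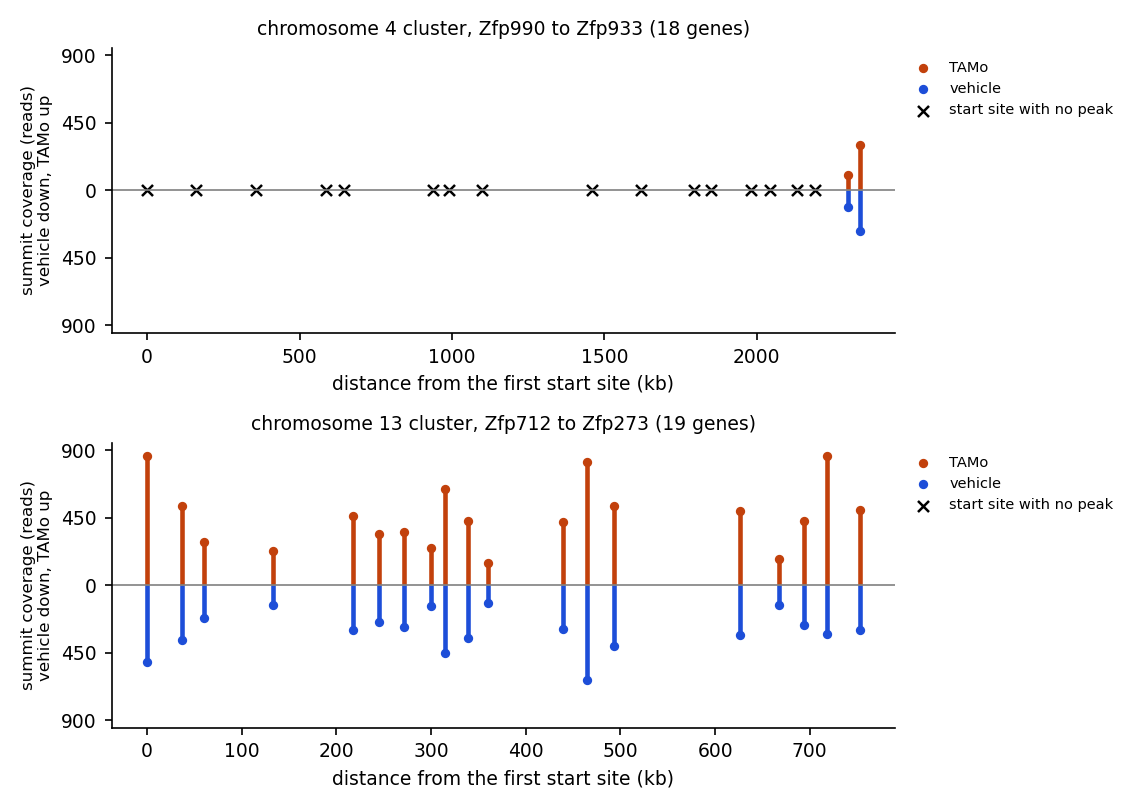
Summit coverage in reads (TAMo upwards, vehicle downwards, linear scale) at the start sites of 2 clusters, against distance in kb from the first start site, with crosses where neither library had a peak. In the chromosome 4 cluster 16 of 18 start sites carry crosses, while all 19 genes of the chromosome 13 cluster have bars in both directions.

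Genes without a peak were mostly those whose transcript starts are copied elsewhere in the genome and are poor in CpG. As a measure of copies, the share of 31-base words in the first 300 bases of a gene's transcript that recur in a transcript of a gene elsewhere was counted. This share was 50% or more for 46 Zfp genes, of which 29 had no peak (63.0%), and under 50% for 311, of which 17 had none (5.47%). The median share was 74.3% for the 46 genes with no peak and 0% for the 311 with one. CpG went the same way: the first 300 bases held fewer than 2 CpG per 100 bases in 73 Zfp genes, 36 of them with no peak (49.3%), and 2 or more in 284, 10 of them with no peak (3.52%). Among other genes, 3823 of 5016 with under 2 CpG per 100 bases had no peak (76.2%) against 2473 of 15434 with 2 or more (16%). Both measures occur together: 38 genes had both many copied words and few CpG (27 with no peak), 35 had few CpG alone (9 with no peak) and 8 had many copied words alone (2 with no peak). The deposited lists do not say how reads that map to several places were treated, and the part of such reads in the missing peaks was not tested.

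With the 46 genes of many copied words set aside, clustered genes had a peak more often than single genes. Of 176 such clustered genes, 173 had a peak in TAMo (98.3%) and 171 in vehicle (97.2%). Of 135 such single genes, 121 had a peak in TAMo (89.6%) and 119 in vehicle (88.1%). The copy measure was chosen after the data had been seen. It set aside 25 of the 28 clustered genes without a peak and 4 of the 18 single ones, so the clustered share had to rise. Over all members the shares were 87.0% and 87.3% in TAMo and 86.0% and 85.9% in vehicle. The 14 single genes with few copied words and no peak include genes of restricted expression: Zfp42 (Rex1, a marker of pluripotent cells) and Zfp683 (Hobit, a factor of tissue-resident memory T cells and natural killer T cells). They also include Zfp352, Zfp366, Zfp37, Zfp474, Zfp488, Zfp503, Zfp541, Zfp616, Zfp648, Zfp735, Zfp831 and Zfp957. Absence from a peak list says that no call was made there and leaves weak signal unseen.

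**Figure D2:**
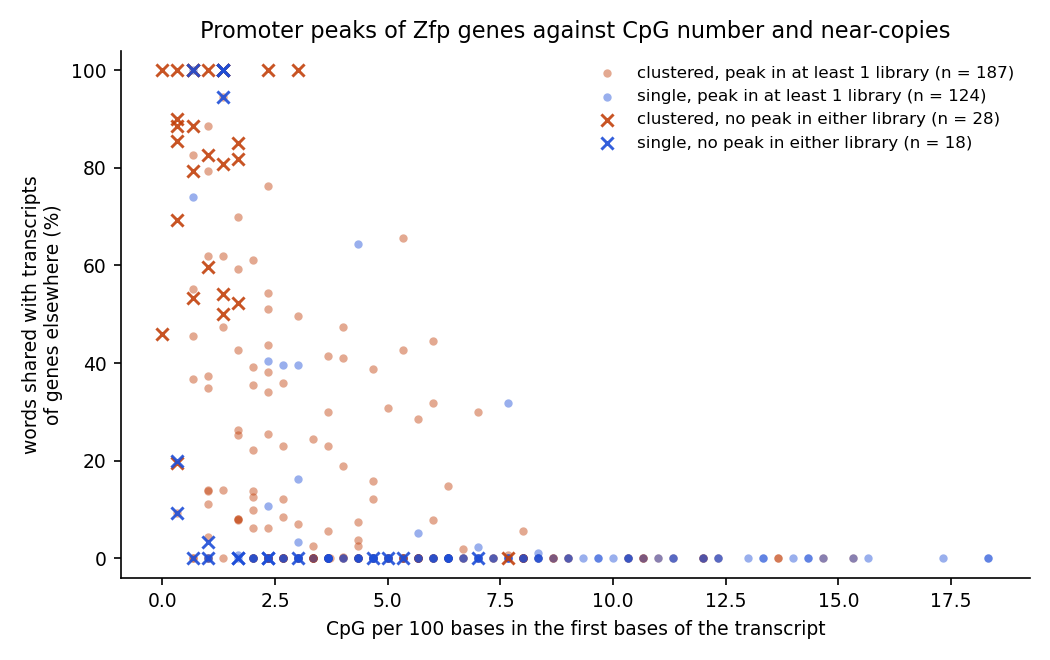
Each Zfp gene by CpG per 100 bases (x) and by the share of 31-base words in % that recur in transcripts of genes elsewhere (y), both in the first 300 transcript bases, with circles for genes with a peak in at least 1 library and crosses for genes with none (orange clustered, blue single). Of the 46 crosses, 29 lie at 50% or above.

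Each of the 4 promoters with a peak in TAMo only had a modest or isolated signal. Zfp750, which drives differentiation of the epidermis, had 299 reads at chr11:121519745-121520157, 558 bp upstream of its start site, and the nearest vehicle peak lay 3029 bp away. Zfp462, a single gene whose protein binds the histone methyltransferases EHMT1 and EHMT2 and protects heterochromatin, had 40 reads, with the nearest vehicle peak 50804 bp away. Zfp853 had 24 reads and Zfp454 had 16, both in clusters. Zfp750 alone stood far above the weakest peaks of the list. With both lists shortened to the 127423 strongest peaks, it was the only TAMo-only gene, and Zfp618 and Zfp105 were vehicle-only.

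Where both libraries had a promoter peak, coverage at Zfp promoters was close to that of promoters in general. The median was 532 reads in TAMo and 418 in vehicle, with ranges of 36 to 1858 reads and 22 to 1610 reads, and over all genes it was 547 and 441 reads. Relative to background, clustered genes had medians of 89.8 in TAMo and 85.1 in vehicle, and single genes 100.5 in TAMo and 91.9 in vehicle. Peaks of clustered genes were also narrower, with median widths of 806 bp in TAMo and 786 bp in vehicle against 893.5 bp and 864 bp for single genes. The summit lay within 100 bp of a start site for 64.6% of Zfp promoters in TAMo and 67.1% in vehicle, against 53.7% and 57.4% of other genes. The strongest promoters were those of Zfp687, Zfp446, Zfp143, Zfp574 and Zfp654 in both libraries. Zfp687, whose protein forms a transcriptional complex with that of Zfp592, had 1858 reads in TAMo and 1610 in vehicle (log2 ratio −0.10). Zfp446 had 1576 and 1348 (−0.08), Zfp143 had 1523 and 1237 (0.00), Zfp574 had 1501 and 1095 (0.15) and Zfp654 had 1414 and 1279 (−0.16). All 5 ratios lay within a small distance of 0.

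A ratio could be formed for 294 genes, 180 clustered and 114 single, whose strongest peaks overlapped. For 12 others the strongest peaks lay at different sites (Zfp13, Zfp65, Zfp362, Zfp407, Zfp516, Zfp532, Zfp639, Zfp668, Zfp710, Zfp791, Zfp811 and Zfp974), and for Zfp958 no vehicle read number was recovered. Strongest peaks at different sites were thus found for 12 of 307 Zfp genes with a peak in both libraries. Over all genes they were found for 630 of 13579, so the Zfp count is not above the background. The median log2 ratio was 0.09 over the Zfp genes (quartiles −0.08 and 0.26) and 0.03 over all 12942 promoters with a ratio (−0.13 and 0.22). It was 0.12 for clustered genes (−0.05 and 0.29), with 124 of 180 above 0 (68.9%). For single genes it was 0.05 (−0.09 and 0.19), with 66 of 114 above 0 (57.9%). Over all promoters 7202 of 12942 ratios were above 0 (55.6%), so the share for single genes was near the background. These medians differ by much less than the spread of the genes within each set. Without division by background every log2 ratio would be 0.30 higher, so directions near 0 hold only on the scaled values.

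At least 1.5-fold higher coverage in TAMo was seen at 21 Zfp promoters, 15 clustered and 6 single, and at least 1.5-fold lower coverage at 8, 4 of each kind. Over all promoters, 8.99% were higher and 3.28% lower by this rule, while of the Zfp promoters 7.14% were higher and 2.72% lower, so neither count departs upwards from the background. For 20 of the 21 higher promoters the interval lay above 0, the exception being Zfp111, and for 8 of 8 lower promoters it lay below 0. Ratios depend on level: over all promoters the median was 0.28 at a mean of up to 100 reads, 0.13 at 100 to 300, 0.00 at 300 to 600 and 0.02 above 600. In the same ranges the Zfp medians were 0.39 (19 genes), 0.11 (51), 0.13 (116) and 0.07 (108). The Zfp values stood above those of all promoters most clearly at 300 to 600 reads, where clustered genes had a median of 0.17 and single genes 0.05. Measured against promoters of like coverage, 16 Zfp promoters were higher and 9 lower, with 6.22% and 5.28% of all promoters called. On that scale the median was 0.10 for clustered genes and 0.03 for single genes.

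**Figure D3:**
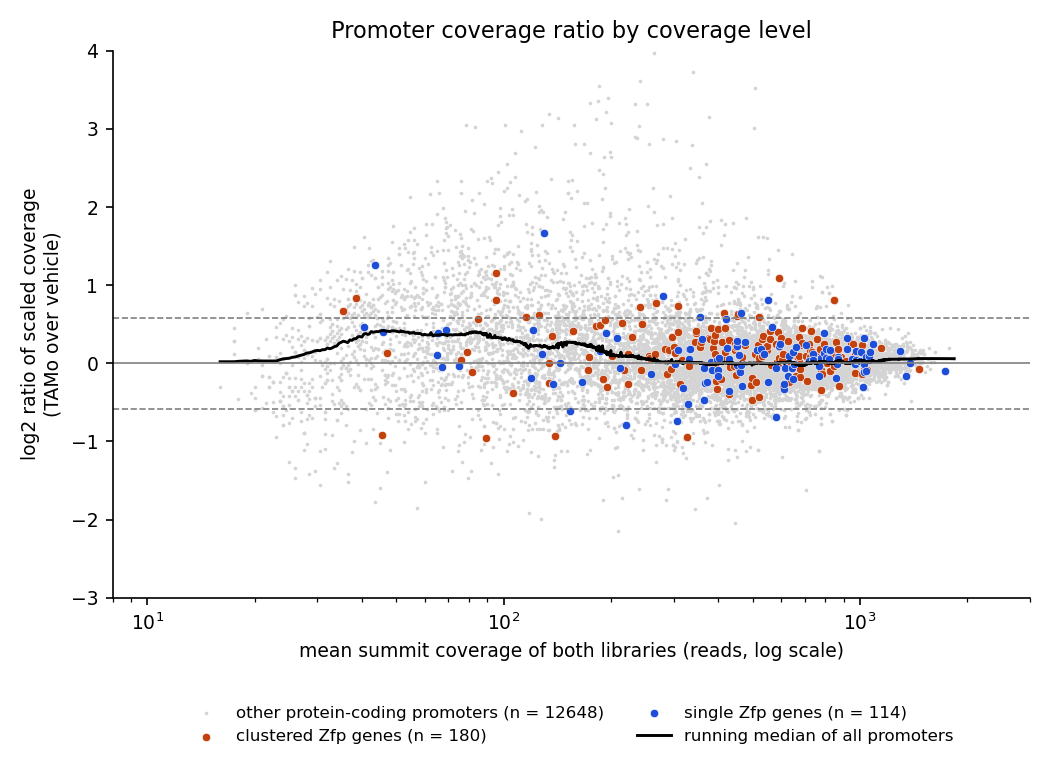
Log2 ratio of scaled summit coverage (TAMo over vehicle) against the mean reads of both libraries (log scale) for clustered Zfp genes (orange, 180), single Zfp genes (blue, 114) and other genes (grey), with the running median of all promoters in black and dashed lines at 1.5-fold. The grey cloud spreads widely below about 300 reads, and most Zfp genes lie at higher coverage, close to 0.

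Medians differed more between genes with and without a KRAB box than between clustered and single genes. A coding pattern typical of the KRAB A box was found in 179 members, 150 of 215 clustered genes (69.8%) and 29 of 142 single genes (20.4%). The pattern misses divergent boxes, so these are lower bounds. KRAB genes had a median log2 ratio of 0.16, with 108 of 145 above 0 (74.5%). Genes without the pattern had 0.05, with 82 of 149 above 0 (55.0%), near the 55.6% of all promoters. The medians, split by the cluster rule, were 0.14 with the pattern and 0.08 without it in clusters, and 0.18 and 0.03 among single genes (23 and 91 genes). Counts past 1.5-fold did not set KRAB genes above the background: 13 of 145 KRAB promoters were higher (8.97%, against 8.99% of all promoters), all 13 clustered, and 1 was lower, Zfp872 (0.690%, against 3.28%). Of the 23 single KRAB genes 0 were higher and 0 lower. The differences remain small beside the quartiles of each set, which for KRAB genes were −0.01 and 0.31.

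A short sequence was more frequent in Zfp promoters than in promoters in general. The Zfp773 and Zfp418 windows printed above share the run gaactacattaccca, and its first 10 bases, gaactacatt, occur in all 4 promoters of their cluster. The gapped word ACTACANNNCCCA, taken from that run after its ratios had been seen, resembles the start of the known binding motif of ZNF143, the human counterpart of Zfp143. Counted on both strands, it occurred in 50 of 290 Zfp promoters (17.2%) and in 427 of 15515 promoters of all genes (2.75%). It was found in 44 of 180 clustered promoters (24.4%) and 6 of 110 single ones (5.45%), in 24.7% of KRAB genes and in 8.82% of the others. Zfp genes with the word had a median log2 ratio of 0.27 (47 genes, quartiles 0.08 and 0.44, 39 above 0) and those without it 0.07 (201 genes, −0.08 and 0.22, 126 above 0). Without the 4 genes of the cluster that gave the word, the median with it was 0.23 over 44 genes and without it 0.07 over 200. Of the 47 Zfp genes with the word and a ratio, 7 were at least 1.5-fold higher (Zfp108, Zfp112, Zfp60, Zfp418, Zfp773, Zfp111 and Zfp606) and 0 were lower. They are 7 of the 20 higher promoters with a sequence (35%), and Zfp418 and Zfp773 among them gave the word. Of the 201 Zfp genes without the word, 13 were higher and 3 lower. Over all promoters 8.99% were higher and 3.28% lower. Among other genes the difference in medians was smaller, with 0.06 for 360 with the word (233 above 0) and 0.03 for 9399 without it (5161 above 0). Of those 360, 11 were at least 1.5-fold higher and 6 lower, and of those 9399, 808 were higher and 283 lower. Higher and lower calls among other genes were thus both less frequent with the word than without it. Other genes with the word also had more coverage, with medians of 834.5 reads in TAMo and 648 in vehicle, against 558 and 452. Over all promoters, 32.0% were higher at a mean of up to 100 reads and 0.743% above 600. The part of coverage in these calls was not tested. A match describes the letters in this window and is not a binding site.

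The other motifs searched, each on both strands, gave modest differences. The ETS-type word CCGGAAGT occurred in 10.3% of Zfp promoters and 5.71% of all promoters, and the NRF1-type palindrome in 3.45% and 1.41%. The GC box GGGCGG occurred in 44.8% and 48.9%, and the TATA word TATAAA in 5.17% and 12.9%. Clustered promoters held the GC box less often than single ones (40% and 52.7%) and the NRF1-type word more often (5.0% and 0.909%). The GC box and the TATA word are both in the Zfp418 window, and the ETS-type word is in the Zfp184 window.

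The genes with the highest ratios were of both kinds. Zfp423 (ENSMUSG00000045333.15), a multi-finger factor of preadipocyte and cerebellar development, had 207 reads in TAMo (chr8:87958365-87959479) and 53 in vehicle (log2 ratio 1.66, interval 1.22 to 2.13). Zfp697 had 65 reads in TAMo and 22 in vehicle (1.26, 0.54 to 2.03). Both are single genes with modest coverage. Zfp108, a KRAB gene whose window is printed above, had 140 reads in TAMo and 51 in vehicle (1.15, 0.68 to 1.65). Zfp493 (ENSMUSG00000090659.9), a KRAB gene of the chromosome 13 cluster, had 863 reads in TAMo (chr13:67779401-67780365) and 327 in vehicle (1.10, 0.91 to 1.29). Zfp60 had 1157 reads in TAMo and 536 in vehicle (0.81, 0.66 to 0.96). Zfp60 was above the median coverage of Zfp promoters in both libraries, and Zfp493 in TAMo alone. Zfp296, a partner of pluripotency factors, had 388 reads in TAMo and 173 in vehicle (0.86). Zfp976 had 130 and 60 (0.81, 0.36 to 1.28), and Zfp112 had 53 and 24 (0.84, 0.12 to 1.60).

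Among the remaining genes at least 1.5-fold higher, summits did not always coincide. Zfp451 had 754 reads in TAMo and 350 in vehicle (0.80), but its summits lay 886 bp downstream of the start site in TAMo and 16 bp upstream in vehicle. Zfp839 (463 and 249 reads, 0.59) likewise had its TAMo summit 1223 bp and its vehicle summit −35 bp from the start site. In all, the 2 summits lay within 100 bp of each other at 274 of 294 promoters, and 5 of the 21 higher promoters were among the 20 others. With summits at or near the same base, Zfp850 had 548 reads in TAMo and 284 in vehicle (0.65), Zfp975 had 595 and 313 (0.62), Zfp551 had 324 and 160 (0.72) and Zfp606 had 590 and 315 (0.60). These 4 lie in clusters on chromosome 7. The rest were Zfp94 (677 and 365), Zfp523 (609 and 316), Zfp663 (164 and 87), Zfp947 (150 and 81) and Zfp111 (47 and 24), with ratios of 0.59 to 0.67.

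The genes with the lowest ratios were 4 clustered and 4 single genes, and 7 of the 8 lacked the KRAB pattern. Zfp575 had 69 reads in TAMo and 109 in vehicle (log2 ratio −0.96, −1.42 to −0.51), and its start site lies head to head with that of Ethe1. Zfp251 (ENSMUSG00000022526.8) had 256 reads in TAMo (chr15:76870539-76871678) and 400 in vehicle (−0.95, −1.18 to −0.72). Zfp467, which favours fat over bone differentiation in marrow stroma, had 109 and 169 (−0.94, −1.30 to −0.58). In the clusters of these 3 genes no other member was lower by 1.5-fold. Zfp609, whose protein binds the cohesin loader NIPBL, had 505 reads in TAMo and 657 in vehicle (−0.68, −0.85 to −0.51). Zfp521, a factor of haematopoietic and neural progenitors, had 137 and 170 (−0.61, −0.95 to −0.28). Zfp184, with its window printed above, had 261 and 352 (−0.73, −0.97 to −0.50). Zfp286 had 184 and 257 (−0.78, −1.07 to −0.51). Zfp872, the KRAB gene among the 8, had 36 and 55 (−0.91, −1.56 to −0.28), the weakest TAMo peak that gave a ratio.

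**Figure D4:**
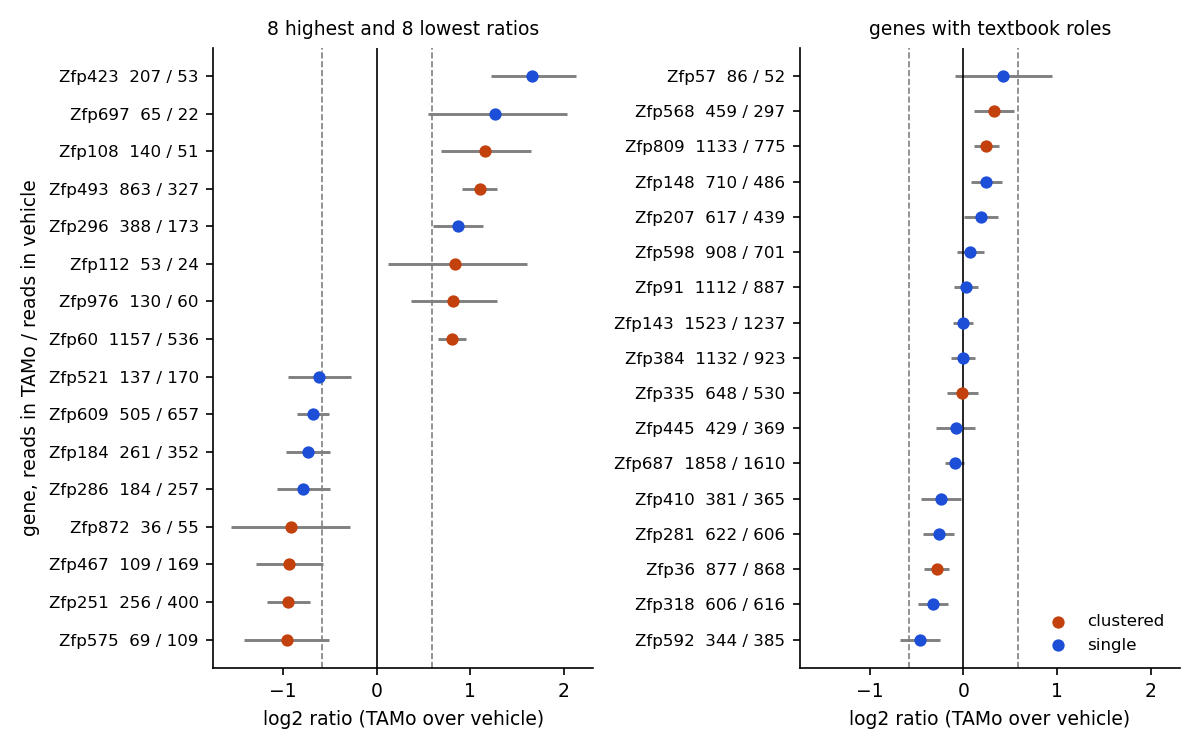
Log2 ratio of scaled summit coverage (TAMo over vehicle, points) with 95% counting intervals (lines) for the 8 highest and 8 lowest Zfp genes (left) and for genes with textbook roles (right), orange clustered and blue single, with reads in TAMo and in vehicle beside each name and dashed lines at 1.5-fold. The genes with textbook roles all lie between the dashed lines.

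By cluster, the median log2 ratio was above 0 in 24 of 31 clusters with a ratio. Over all promoters the median was 0.03 and 55.6% of ratios were above 0, so 0 is not the background. Of the 24, the clusters headed Zfp972, Zfp653 and Zfp397 had medians of 0.01, 0.00 and 0.01, below that of all promoters. The highest median, 0.62, was that of a cluster of 4 KRAB genes on chromosome 7 (7121488 to 7209998). There Zfp418 had 363 reads in TAMo and 173 in vehicle (0.77, 0.50 to 1.04), and Zfp773 had 415 and 203 (0.73, 0.48 to 0.98). Zfp772 had 274 and 155 (0.52, 0.23 to 0.81) and Zfp954 had 820 and 528 (0.33, 0.17 to 0.49). All 4 intervals lay above 0, and 2 of the 4 genes, Zfp418 and Zfp773, passed 1.5-fold. A second chromosome 7 cluster of 12 genes, from Zfp180 to Zfp575 (24081924 to 24587641), had a median of 0.39 and the widest range, −0.96 at Zfp575 to 1.15 at Zfp108. In it Zfp108, Zfp112, Zfp111 and Zfp94 were higher by 1.5-fold and Zfp575 lower. Zfp93 (310 reads in TAMo and 178 in vehicle, 0.50) and Zfp109 (236 and 136, 0.49) fell short of that fold, and Zfp180, its strongest promoter, had 1105 and 955 reads (−0.09). Ratios were above 0 at 4 of 4 genes in the first of these clusters and at 9 of 12 in the second. Both clusters were picked out by their high medians, so these counts are no separate result.

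The chromosome 13 cluster of 19 genes (67061170 to 67813740) had a median of 0.22 with 17 of 18 ratios above 0, although Zfp493 alone passed 1.5-fold. Over all promoters 55.6% of ratios were above 0. Its lowest ratio was −0.01, at Zfp429, with 430 reads in TAMo and 352 in vehicle. This cluster also holds Rsl1, a KRAB gene known to repress sex-biased genes in mouse liver. The 19 genes of the chromosome 17 cluster from Zfp160 to Zfp946 had a median of 0.07, from −0.30 at Zfp229 (195 reads in both libraries) to 0.59 at Zfp947. The 11 genes of a second chromosome 17 cluster had a median of 0.19, from −0.19 at Zfp101 to 0.46 at Zfp563. The 15 genes from Zfp84 to Zfp146 on chromosome 7 had a median of 0.09, from −0.43 at Zfp382 to 0.34 at Zfp27. These 4 clusters and the 12-gene cluster had medians of 0.07 to 0.39, each with members on both sides of 0.

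The other clusters of at least 6 genes differed in median and in spread. On chromosome 7, the cluster with Zfp551 had a median of 0.09 with Zfp329 lowest (−0.20), and that with Zfp976 had 0.24 with Zfp658 lowest (−0.40). The cluster from Zfp60 to Zfp36 had 0.30, and that from Zfp553 to Zfp668 had 0.07, from −0.34 at Zfp646 to 0.45 at Zfp764. The cluster from Zfp787 to Zfp28 had 0.14, from −0.27 at Zfp583 to 0.41 at Zfp444. The chromosome 8 cluster from Zfp930 to Zfp866 was narrow, from 0.05 at Zfp930 to 0.27 at Zfp963. Medians below 0 were found in the chromosome 4 cluster of 18 genes, at −0.26 from only 2 ratios, in the chromosome 6 cluster, at −0.10 with 2 of 8 ratios above 0 (Zfp777 highest at 0.21), and in the chromosome 7 cluster from Zfp628 to Zfp580, at −0.05, from −0.34 at Zfp865 to 0.41 at Zfp579. In total, chromosome 7 carried 89 Zfp genes, 82 of them with a ratio (median 0.13), and 13 of the 21 higher and 1 of the 8 lower promoters. These are 15.9% and 1.22% of the 82, and of the 964 other promoters on chromosome 7 with a ratio 9.96% were higher and 3.53% lower.

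**Figure D5:**
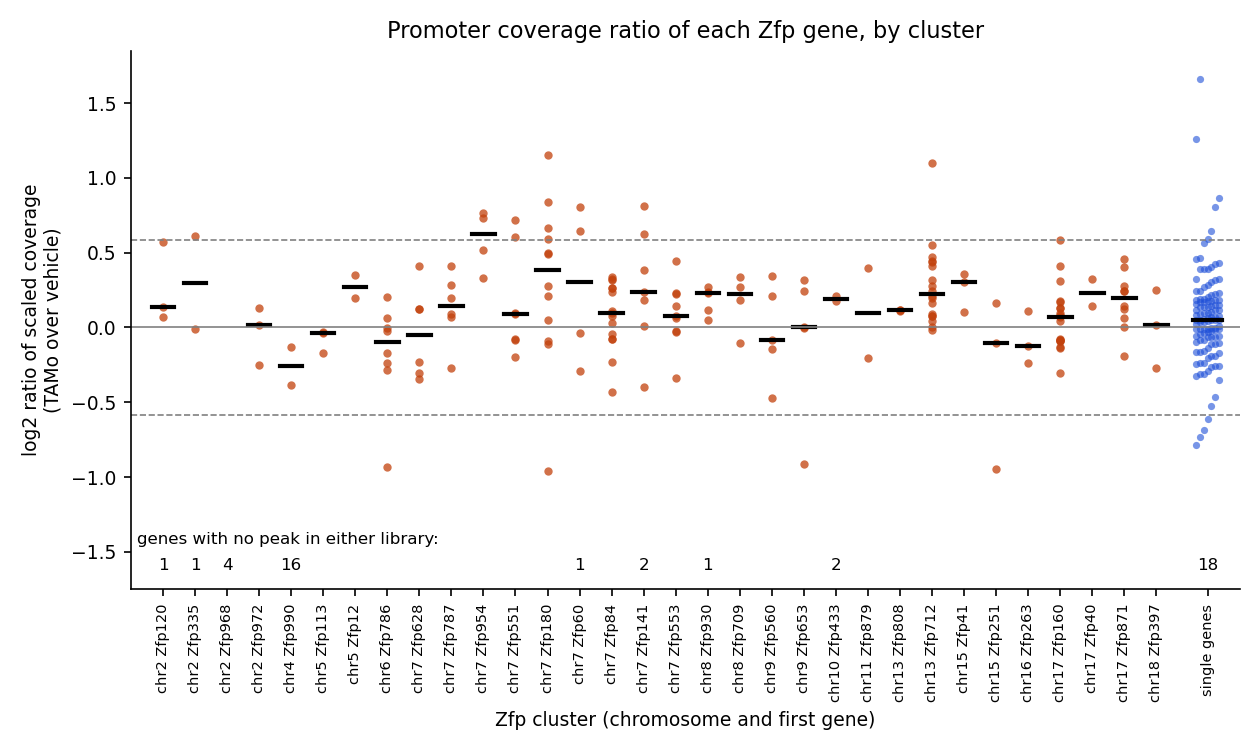
Log2 ratio of scaled summit coverage (TAMo over vehicle) of each clustered Zfp gene (orange, 1 column per cluster, named by its first gene) and of all single genes (blue), with black bars for medians, dashed lines at 1.5-fold, and the number of genes with no peak in either library written at the foot. The chromosome 7 column headed Zfp954 has the highest median, 0.62, and the columns headed Zfp968 and Zfp990 hold 4 and 16 genes with no peak.

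Among genes with textbook roles, those that guard imprints or silence retroviruses were near 0 or a little above it. Zfp809, which silences murine leukaemia virus in embryonic cells, had 1133 reads in TAMo and 775 in vehicle (0.25, 0.11 to 0.38). Zfp568, a repressor of a placental Igf2 transcript, had 459 and 297 (0.33, 0.11 to 0.54). Zfp57, which keeps imprints methylated, had 86 and 52 (0.42, −0.09 to 0.95), and its partner in that role, Zfp445, had 429 and 369 (−0.09, −0.29 to 0.12). None of these passed 1.5-fold.

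Genes of general transcription and RNA control were mostly at or below 0. Zfp143, which binds core promoters and loop anchors, was at 0.00 and Zfp384 at −0.01, with 1132 reads in TAMo and 923 in vehicle. Zfp148 had 710 and 486 reads (0.24, 0.08 to 0.41) and Zfp281, a GC-rich DNA binder, had 622 and 606 (−0.26, −0.43 to −0.10). Zfp592 had 344 and 385 (−0.46, −0.68 to −0.25), the lowest of this group, unlike its complex partner Zfp687 at −0.10. Zfp410, whose human counterpart activates the chromatin remodeller gene CHD4, had 381 and 365 (−0.24, −0.45 to −0.03). Zfp36, whose protein destabilises cytokine mRNAs and restrains T cell activation, had 877 and 868 (−0.29, −0.42 to −0.15), at a summit 866 bp upstream of the start site in TAMo and 882 bp in vehicle. Zfp598, a ubiquitin ligase for collided ribosomes, had 908 and 701 (0.07), and Zfp207, a spindle assembly factor, had 617 and 439 (0.19, 0.01 to 0.37).

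Of the genes with lymphocyte roles, Zfp335, needed for thymocyte maturation, had 648 reads in TAMo and 530 in vehicle (−0.01). Zfp318, known for IgD expression in B cells, had 606 and 616 (−0.33, −0.49 to −0.16), and Zfp91, a ubiquitin ligase active in NF-κB signalling, had 1112 and 887 (0.02). Zfp683 had no promoter peak in either culture. None of the named textbook genes reached 1.5-fold in either direction, which 8.99% and 3.28% of all promoters did.

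The corepressor genes that work with KRAB proteins had mostly lower ratios than the Zfp promoters. All 20 had a peak in both libraries, and their median log2 ratio was −0.25, with 0 higher and 3 lower by 1.5-fold. Over all promoters 8.99% were higher and 3.28% lower. Trim28, the KRAB corepressor itself, had 593 reads in TAMo and 569 in vehicle (−0.24, −0.41 to −0.07), and the methyltransferase gene Setdb1 had 275 and 242 (−0.12, −0.37 to 0.14). The 3 lower genes act at replicating DNA. Dnmt1, the maintenance DNA methyltransferase, had 358 and 577 (−0.99, −1.19 to −0.80), its partner Uhrf1 had 651 and 903 (−0.77, −0.92 to −0.63) and the chromatin assembly subunit Chaf1a had 441 and 561 (−0.65, −0.83 to −0.47). Only Hdac2 (0.13) and Mphosph8 (0.16), a subunit of the HUSH silencing complex, were above 0 in this list.

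Away from promoters, peak density in clusters was below that of the rest of the autosomes. There were 800 TAMo peaks and 531 vehicle peaks over 14.5 Mb of cluster sequence, 55.1 and 36.6 per Mb, against 66.0 and 44.8 per Mb outside. With clusters drawn by a 250 kb window, the cluster densities were 65.9 and 44.2 per Mb, and without the chromosome 4 cluster and the Zfp968 to Zfp966 cluster they were 67.0 in TAMo and 44.5 in vehicle. Within gene bodies outside promoter windows, clustered Zfp genes had 48.6 peaks per Mb in TAMo and 30.3 in vehicle. Single Zfp genes had 108 and 66.9, and other genes 89.7 and 61.1. Gene bodies of clustered members thus had the lowest density of the 3 sets and those of single members the highest, in each library.

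Some promoters cannot be assigned to 1 gene. A start site of another protein-coding gene lay within the same window for 34 Zfp genes, 17 clustered and 17 single, and 26 of them were divergent pairs, 9 clustered and 17 single. In TAMo 6 Zfp genes shared their peak with another Zfp gene (3 peaks), and in vehicle 8 did (4 peaks). These included Zfp758, Zfp942, Zfp943 and Zfp944 in both libraries, and Zfp934 with Zfp935. Values of such pairs are 1 measurement.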

How the data were processed

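Peaks of 2 ATAC-seq libraries, 1 TAMo and 1 vehicle, were used. Per the submitters' processing notes, Trimmomatic 0.36, Bowtie2 and MACS2 were run with build mm10. The sources used here do not give caller options, read shifting, duplicate removal or the treatment of reads that map to several places. The deposited lists, called per library, hold for each summit the fold enrichment over local background, the −log10 p and −log10 q, a score equal to 10 times −log10 q, and the summit position, all as the authors' peak caller wrote them.

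Because fold enrichment is (reads + 1)/(background + 1) and the p-value is a Poisson tail, the whole number of reads at each summit was solved for, within 1% of the step between neighbouring whole numbers (tested on simulated data). Genes, start sites and coding sequences came from GENCODE M21. A promoter was 1 kb on either side of any start site, overlapped by at least 1 bp, and its strongest peak by −log10 q was taken. Depth was the most frequent background, and intervals are exact binomial and cover counting error only. C2H2 fingers and KRAB boxes were found by codon patterns in the coding sequences, for 357 of 357 members. Python 3.11.15, numpy 2.4.6, pandas 2.3.3, scipy 1.17.1, edlib 1.3.9 and matplotlib 3.10.9 were used.

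The members and lists were chosen with earlier results of these data known. Named were the 8 highest and 8 lowest ratios among promoters with at least 50 reads over both summits, promoters with a peak in 1 library, the 5 strongest promoters, genes with textbook roles, and the highest and lowest gene of each cluster of at least 6. The other members past 1.5-fold, the members without a peak or ratio, the other genes of the Zfp954 cluster, and Zfp93, Zfp94, Zfp109 and Zfp180 were named after their values were seen. The gapped word and the copy measure were also chosen after seeing the data.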

Additional observations from a re-analysis of the deposited data

How the results depend on the processing

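Of 113 values recomputed under 17 alternatives, 91 were counted as moving little, by a rule too wide to test the small median ratios. With ratios centred on the median of all promoters, clustered genes had a median log2 ratio of 0.08 and single genes 0.02. As reported, these medians were 0.12 and 0.05, and both were counted as unmoved. Clustered genes kept the higher median in each setting tried. Vehicle-only promoters, 0 as reported, were 2 with windows of 500 bp or 2.5 kb and 2 with lists of equal length. TAMo-only promoters, 4 as reported, were 7 at −log10 q of at least 10 and 1 with lists of equal length. The share of clustered genes with a peak was 92.3% in TAMo and 91.1% in vehicle with a 250 kb cluster window. It was 95.9% and 94.8% without the chromosome 4 cluster and the Zfp968 to Zfp966 cluster, and 98.3% and 97.2% without genes of many copied words. The last 2 settings were chosen after seeing the data. Without scaling for depth, the median log2 ratio was 0.40 (clustered 0.42, single 0.35), with 65 Zfp promoters higher and 4 lower. Peaks outside promoters per Mb of cluster were 41.2 in TAMo and 26.2 in vehicle at −log10 q of at least 10, 65.9 and 44.2 with the 250 kb window, and 67.0 and 44.5 without the chromosome 4 cluster and the Zfp968 to Zfp966 cluster, a setting added after seeing the data. The shift without scaling is the depth difference itself, and the cause of the other changes was not tested. The median for genes with the gapped word was 0.27, 0.23 without the cluster that gave it and 0.26 relative to promoters of like coverage, all chosen after seeing the data. No paired analysis was possible because each culture has 1 library. Weak promoters set the limit of depth: at Zfp111, with 47 reads in TAMo and 24 in vehicle, the interval ran from −0.07 to 1.44. A p-value, a replicate spread and any statement on other animals are beyond 1 library per culture.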

Other observations

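Other zinc finger gene families were measured in the same way. Of 40 Zbtb genes, which pair zinc fingers with a BTB domain, 39 had a promoter peak in both libraries. The 35 with a ratio had a median log2 of −0.08, with 3 at least 1.5-fold higher and 2 lower, against 8.99% and 3.28% of all promoters. Of 16 Klf genes 14 had a peak in both libraries (median 0.04), and of 11 Zkscan genes 10 did (median 0.04), the other being vehicle-only. Of 19 Zscan genes, which carry a SCAN domain, 8 had a peak in both libraries (median 0.04, 1 higher and 0 lower) and 11 in neither. Over all genes 65.3% had a peak in both libraries and 30.5% in neither. Of 13 Zfhx, Zfpm and Zfyve genes 12 had a peak in both libraries (median 0.12) and 1 in vehicle only. The median of the Zfp genes was 0.09, above those of the Zbtb, Klf, Zkscan and Zscan genes. Only the mixed set of Zfhx, Zfpm and Zfyve genes, with 10 ratios, had a higher median.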
